A study of Caenorhabditis elegans with 10 samples.

Results

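The genes described here are 40 genes of the cell cycle, DNA replication and mitosis in the nematode Caenorhabditis elegans, out of 17118 genes measured on the arrays. They were taken from a list of symbols, and each was matched to the platform annotation by a probe set with exactly 1 symbol. A gene with several such probe sets was represented by the brightest, as averaged over the 10 arrays. All 40 were measured. By role they divide into 10 genes of the pre-replication complex and its loading, 10 cyclins and cyclin-dependent kinases, 5 regulators of those kinases, 3 transcription factor genes of the E2F and Rb pathway, 5 mitotic kinases and chromosomal passengers, 4 genes of the centromere, kinetochore and spindle checkpoint, and 3 of the anaphase-promoting complex.

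The strains were Bristol N2, the wild-type laboratory strain, and a mutant with the xpa-1 allele ok698, which lies on chromosome I. XPA-1 is the worm counterpart of the human nucleotide excision repair protein XPA. Both strains were untreated populations of mixed stage on HT115(DE3) bacteria at 20 degrees, with 5 arrays each, and each array held RNA from its own collection of worms from many plates. The comparison asks whether loss of xpa-1 alters transcript levels without added DNA damage. RNA came from whole animals, so each value adds up germline, embryos, larvae and adult somatic tissue, and a lower signal from fewer dividing cells cannot be told apart from less RNA per cell.

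A cell licenses its DNA for replication by placing the MCM helicase on origins with the origin recognition complex, CDC-6 and CDT-1. Cyclins then switch on their kinases to start S phase and mitosis, while CKI inhibitors, WEE-1.3 and CDC-25 phosphatases set when those kinases act. In mitosis the Polo and Aurora kinases, the centromere and the kinetochore bring chromosomes onto the spindle, and the anaphase-promoting complex ends the phase by marking cyclin B and securin for destruction. In an adult hermaphrodite the somatic cells no longer divide, and most cell cycle transcripts lie in the germline and in the embryos that it supplies.

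The labels were checked on xpa-1 itself, whose log2 signal lay between 6.38 and 6.88 on the N2 arrays and between 0 and 1.58 on the mutant arrays. The median log2 signal of an array was 4.00 at the lowest and 4.25 at the highest. Low values are the log2 of whole numbers, and 0 is the lowest that occurs. All correlations between pairs of arrays over genes lay between 0.953 and 0.984, and no array was a copy of another. Precision is limited by having 5 arrays per strain.

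No cell cycle transcript was found to differ between the mutant and the wild type. Of the 40 genes, 0 passed an adjusted p of 0.05 in limma, with Benjamini-Hochberg adjustment over all 17118 genes, of which 0.111% passed. Unadjusted, 0 of the 40 had a limma p under 0.05, against 3.33% of all genes, and the lowest was 0.168 for cyd-1. The strains' arrays overlapped for each of the 40 genes, while they did not overlap for 0.374% of all genes. Differences, given throughout as xpa-1 minus N2 in log2, ran from -0.19 to 0.16 with a median of 0.036, beside a median of 0.020 over all genes. Over genes with a mean log2 signal over 4 the median was 0.034.

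The intervals bound how large a difference these arrays could hide. For 39 of the 40 genes the 95% interval of the difference lay inside a 2-fold change in either direction, and for 37 it lay inside a 1.5-fold change. The shares were 97.5% and 92.5% of the 40, 95.6% and 81.5% of genes with a mean log2 signal over 4, and 76.4% and 50.2% of all genes. Each interval is that of 1 gene, with no adjustment for the number of genes. The exceptions to the narrower bound were cdt-1 with an interval from -0.87 to 0.91, lin-35 with -0.44 to 0.68, and cdk-2 with -1.065 to 1.065, which was also outside the wider bound.

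**Figure D1:**
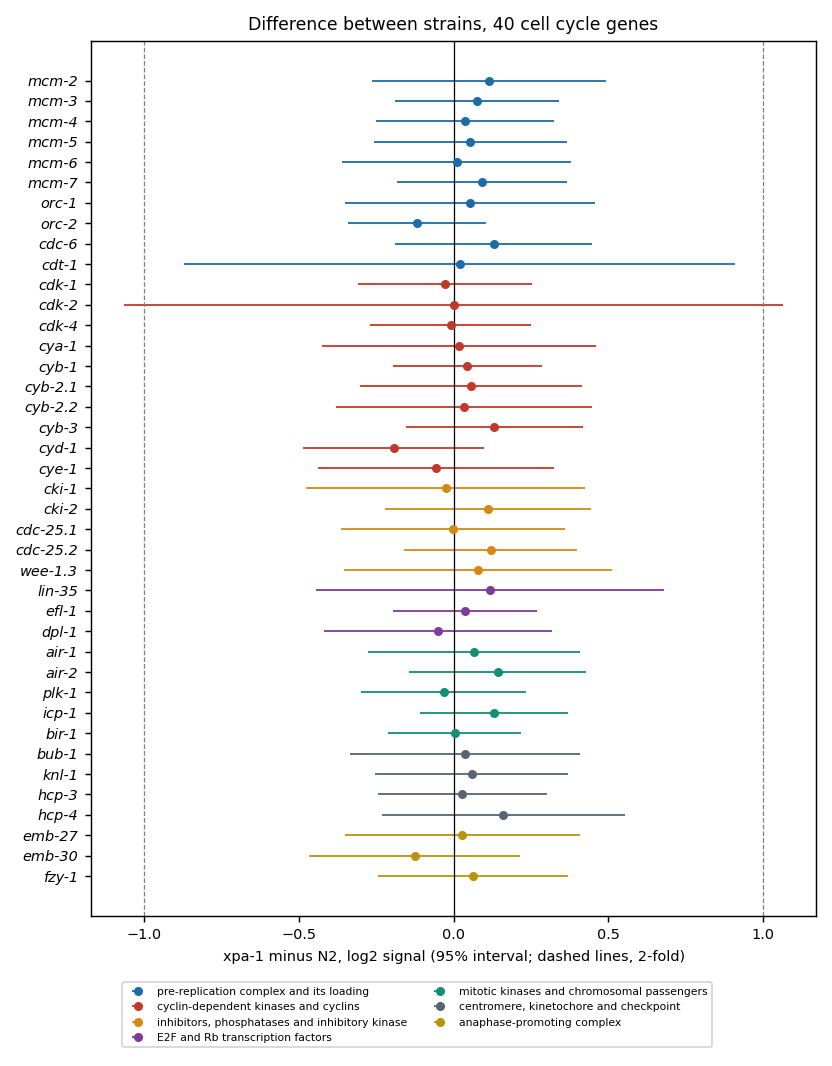
The horizontal axis is the difference in log2 signal, xpa-1 minus N2, for each of the 40 genes on the vertical axis, coloured by role; points are limma estimates from 5 arrays per strain and bars are 95% intervals. All 40 bars cross 0, and only the bar of cdk-2 reaches the dashed lines that mark a 2-fold change.

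The direction of the small median rested on 1 array. Of the 40 differences 30 were above 0, as were 55.8% of all genes and 63.9% of genes with a mean log2 signal over 4, but without N2 array 5 only 9 of the 40 were above 0 and the median was -0.050. Without N2 array 1 it was 36 of 40, with a median of 0.110. No gene of the 40 passed an adjusted p of 0.05 in limma in either case. The following paragraphs give the genes by role, and then the array-to-array pattern behind these counts.

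The MCM genes encode the 6 subunits of the replicative helicase, and 0 of the 6 passed the test. The mcm-7 signal was 10.08, 9.96, 9.63, 9.73 and 9.51 on N2 arrays 1 to 5 and 9.72, 10.00, 9.78, 9.83 and 10.04 on the xpa-1 arrays. The mutant arrays all lay within the range of the wild type, and the difference was 0.09 (SE 0.12, limma adjusted p = 1). Differences of the other MCM genes were 0.11 for mcm-2, 0.08 for mcm-3, 0.04 for mcm-4, 0.05 for mcm-5 and 0.01 for mcm-6. For all 6 the lowest array was N2 array 5, and for 5 of the 6, mcm-3 being the exception, the highest was N2 array 1.

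Among the origin and loading genes, orc-2 differed from the rest on 1 of its 2 probe sets, the brighter one. Its product is a subunit of the origin recognition complex that marks origins, and its signal was 6.69, 6.55, 6.49, 6.60 and 6.57 in N2 and 6.44, 6.75, 6.34, 6.55 and 6.23 in xpa-1. The strains overlapped, with the lowest 3 values on mutant arrays 5, 3 and 1, and the difference was -0.12 (SE 0.098, limma adjusted p = 1). The second orc-2 probe set differed by -0.016 (SE 0.16) and was lowest on N2 array 5, at 5.78. The other subunit on the list, orc-1, differed by 0.05 (SE 0.18) and the loader cdc-6 by 0.13 (SE 0.14).

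The licensing factor gene cdt-1 varied the most of this group and was also its dimmest, with a mean log2 signal of 3.89. Its signal was 4.95, 4.64, 3.17, 3.32 and 3.32 in N2 and 4.00, 3.91, 3.81, 3.32 and 4.46 in xpa-1, a span of 3.43-fold over the 10 arrays. The highest values were on N2 arrays 1 and 2 and on xpa-1 array 5, and the difference between strains was 0.02 (SE 0.39).

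Of the 10 cyclins and their kinases, 0 passed the test, with differences from -0.19 to 0.13. B-type cyclins drive entry into mitosis, and the cyb-3 signal was 10.87, 10.67, 10.50, 10.48 and 10.17 in N2 and 10.53, 10.74, 10.63, 10.61 and 10.84 in xpa-1. All mutant values lay inside the wild-type range, and the difference was 0.13 (SE 0.13, limma adjusted p = 1). The second cyb-3 probe set differed by -0.016 (SE 0.079), so the direction was not shared. The differences were 0.04 for cyb-1, 0.06 for cyb-2.1 and 0.03 for cyb-2.2. The last 2 are closely related genes measured by probe sets of the class that can match several related transcripts, so their signals may be shared and are uncertain as separate values. Their kinase gene cdk-1 had 8.75 ± 0.21 in N2 and 8.72 ± 0.19 in xpa-1 (SD, n = 5 each).

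Of the S phase genes, cya-1, which encodes cyclin A, differed by 0.02 (SE 0.20), and cye-1, which encodes the cyclin E that starts S phase, by -0.06 (SE 0.17). The cya-1 signal was 5.70 on N2 array 5 and between 6.32 and 6.82 on the other 9. The second cya-1 probe set was also lowest on N2 array 5, at 5.43. It read 5.49 on N2 array 3, however, and so did not set N2 array 5 apart. The cdk-2 probe set stood at 0 on 4 of 10 arrays and at most at 1.58 on the rest, so the CDK-2 kinase transcript was at the floor of the scale and its difference of 0.00 (SE 0.47) says little about it.

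Cyclin D and CDK-4 promote the step from G1 to S phase, mainly in larval cell divisions. The cyd-1 signal was 4.64, 4.95, 4.39, 4.64 and 4.64 in N2 and 4.52, 4.09, 4.58, 4.64 and 4.46 in xpa-1. That was the largest difference below 0 of the 40, -0.19 (SE 0.13, limma adjusted p = 1), with the lowest value on xpa-1 array 2 and the strains overlapping. The second cyd-1 probe set differed by 0.06 (SE 0.16), so the direction was not shared. For cdk-4 the difference was -0.01 (SE 0.12).

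The 5 regulators of these kinases had differences from -0.026 to 0.12, and 0 passed. CDC-25.1 is the phosphatase that activates cyclin-dependent kinases in the germline and early embryo, and cdc-25.1 read 9.01, 8.68, 8.54, 8.65 and 8.22 in N2 and 8.54, 8.72, 8.47, 8.38 and 8.98 in xpa-1. The mutant values lay within those of the wild type, and the difference was -0.002 (SE 0.16). The related cdc-25.2 differed by 0.12 (SE 0.12), and wee-1.3, whose product is an inhibitory kinase of CDK-1 that acts in oocytes, by 0.08 (SE 0.19).

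The inhibitor genes cki-1 and cki-2, which hold cells in G1, are of the same family. The cki-1 signal was 6.30, 7.03, 6.60, 6.67 and 6.87 in N2 and 6.32, 6.41, 7.13, 7.02 and 6.46 in xpa-1. It was lowest on N2 array 1, which was the highest array for 19 of the 40 genes. The second cki-1 probe set was instead lowest on N2 array 5, at 5.32, and read 5.36 to 5.91 on the other 9. The cki-2 signal was 6.27 on N2 array 5 and between 6.78 and 7.16 on the other 9. Neither differed between strains beyond the spread, at -0.03 (SE 0.20) for cki-1 and 0.11 (SE 0.15) for cki-2.

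LIN-35, the only worm protein of the Rb family, works with the E2F protein EFL-1 and its partner DPL-1 in the DREAM complex, which holds down cell cycle and germline genes. The efl-1 signal was 7.44, 7.36, 7.27, 7.13 and 7.0 in N2 and 7.28, 7.52, 7.18, 7.21 and 7.19 in xpa-1, with a difference of 0.04 (SE 0.10). The lin-35 signal was 7.33, 7.22, 7.21, 7.09 and 5.98 in N2 and 6.98, 7.19, 6.82, 7.27 and 7.16 in xpa-1, a difference of 0.12 (SE 0.25). N2 array 5 stood below all the others, which lay between 6.82 and 7.33. For dpl-1 the difference was -0.05 (SE 0.16).

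Of the 5 mitotic kinase and chromosomal passenger genes, 0 passed the test. The Polo kinase gene plk-1 read 9.29, 9.18, 8.91, 8.99 and 8.67 in N2 and 8.92, 8.98, 8.95, 8.87 and 9.16 in xpa-1 (difference -0.03, SE 0.12). AIR-2, the Aurora B kinase, forms the passenger complex with ICP-1, the worm INCENP, and BIR-1, the worm survivin. The air-2 signal was 7.61, 7.50, 7.33, 7.48 and 6.94 in N2 and 7.45, 7.61, 7.46, 7.38 and 7.67 in xpa-1.

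The air-2 difference of 0.14 (SE 0.13, limma adjusted p = 1) was among the 2 largest above 0 and did not pass. Its partner icp-1 read 8.36, 8.15, 8.04, 8.07 and 7.96 in N2 and 8.11, 8.44, 8.09, 8.16 and 8.43 in xpa-1, and differed by 0.13 (SE 0.11, limma adjusted p = 1). The third partner bir-1 differed by 0.004 (SE 0.095). For air-1, the Aurora A kinase gene of the centrosome, the difference was 0.07 (SE 0.15).

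The 4 centromere and kinetochore genes had differences from 0.028 to 0.16, and 0 passed. HCP-3 is the centromeric histone of the CENP-A type, HCP-4 the worm CENP-C, KNL-1 the scaffold of the outer kinetochore and BUB-1 a checkpoint kinase. The knl-1 signal was 8.42, 8.45, 8.22, 8.24 and 7.79 in N2 and 8.24, 8.37, 8.16, 8.10 and 8.54 in xpa-1 (difference 0.06, SE 0.14). The hcp-4 signal was 6.83, 6.69, 6.49, 6.77 and 5.86 in N2 and 6.71, 6.71, 6.69, 6.55 and 6.78 in xpa-1.

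The hcp-4 difference, 0.16 (SE 0.17, limma adjusted p = 1), was the largest above 0 of the 40, and without N2 array 5 it was -0.007. All 5 mutant arrays lay between the lowest and highest N2 arrays. Differences were 0.03 (SE 0.12) for hcp-3 and 0.04 (SE 0.17) for bub-1.

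In the anaphase-promoting complex, EMB-27 and EMB-30 are core subunits and FZY-1, the worm Cdc20, is its activator. The emb-27 signal was 7.99, 8.01, 7.76, 7.82 and 7.17 in N2 and 7.77, 7.94, 7.64, 7.55 and 7.99 in xpa-1 (difference 0.03, SE 0.17). The emb-30 signal was 6.25, 6.67, 6.30, 6.46 and 6.02 in N2 and 6.32, 6.15, 6.43, 5.81 and 6.36 in xpa-1, a difference of -0.13 (SE 0.15, limma adjusted p = 1). Its lowest value was on xpa-1 array 4, not on N2 array 5, and the strains overlapped. The fzy-1 difference was 0.06 (SE 0.14).

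Larger differences lay between single arrays, where most of the cell cycle genes were high or low together. Their mean log2 signal was 7.58, 7.49, 7.21, 7.33 and 6.97 on N2 arrays 1 to 5 and 7.29, 7.46, 7.29, 7.23 and 7.49 on xpa-1 arrays 1 to 5. The highest and the lowest array were thus both wild type, 1.53-fold apart, with the mutant arrays between them. The mean over all genes spanned 1.13-fold, between 4.15 on N2 array 1 and 4.32 on xpa-1 array 1, and did not follow this order.

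Single genes shared the order. N2 array 5 was the lowest of the 10 arrays for 32 of the 40 genes, compared with 34.4% of all genes, and N2 array 1 the highest for 19 of the 40, compared with 17.5%. All 7 role groups had their lowest mean on N2 array 5. N2 array 1 exceeded N2 array 5 by a median of 0.67 in log2, with a range from -0.58 for cdk-2 to 1.63 for cdt-1. These counts compare single arrays and carry no test.

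**Figure D2:**
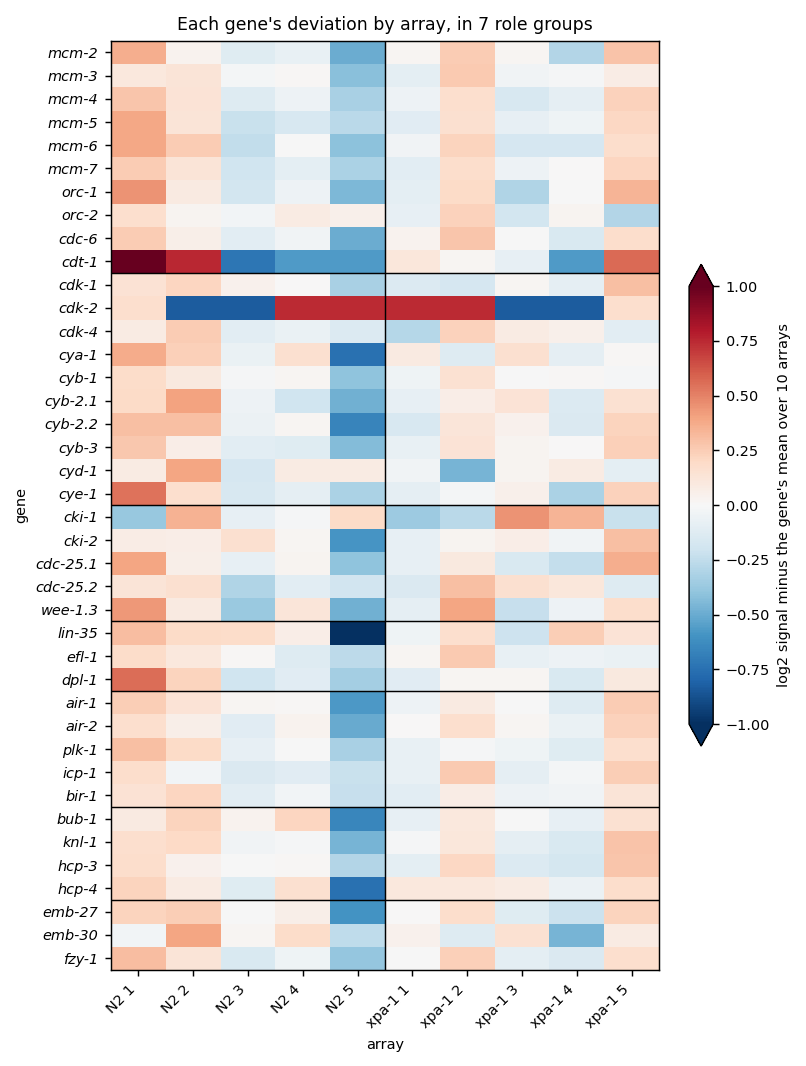
Rows are the 40 genes in 7 role groups divided by black lines, columns are the 10 arrays, and colour gives the log2 signal minus the gene's own mean over the 10 arrays, from blue below to red above, cut off at 1 in either direction. The column of N2 array 5 is blue for most genes and that of N2 array 1 red, while cki-1 and the dim cdk-2 go another way.

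The mean of the 40 genes was also highest on N2 array 1 and lowest on N2 array 5 under other scalings. With each array centred on its median the members' mean was 7.69 on N2 array 1 and 6.91 on N2 array 5, and after quantile normalization 7.57 and 7.05. N2 array 5 was the lowest array for 32 genes with centring and for 27 after quantile normalization.

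The order matched that of markers of the germline. The mean of 22 oocyte and maternal germline markers, such as the eggshell genes cpg-1 and cpg-2 and the oocyte maturation genes oma-1 and oma-2, was highest on N2 array 1 at 9.49 and lowest on N2 array 5 at 8.77. Early embryonic markers (15 genes) had the same extremes, 4.19 and 3.46. Molting larva markers (13 genes) ran the other way, with 4.86 on N2 array 1 and 6.53 on N2 array 5. Body wall muscle markers (13 genes) were highest on N2 array 5, at 9.58. They were lowest on xpa-1 arrays 2 and 5, at 8.99, with 9.13 on N2 array 1. Neuron markers (12 genes), like the molting markers, were lowest on N2 array 1, at 5.48, and highest on N2 array 5, at 6.43.

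Sperm and intestine markers had neither their highest nor their lowest mean on N2 array 1 or 5. Sperm markers (13 genes) ranged from 2.47 on N2 array 2 to 4.13 on xpa-1 array 1, and intestine markers (13 genes) only from 9.20 to 9.37. The part of germline, embryonic and larval RNA in the spread of the cell cycle genes was not tested.

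**Figure D3:**
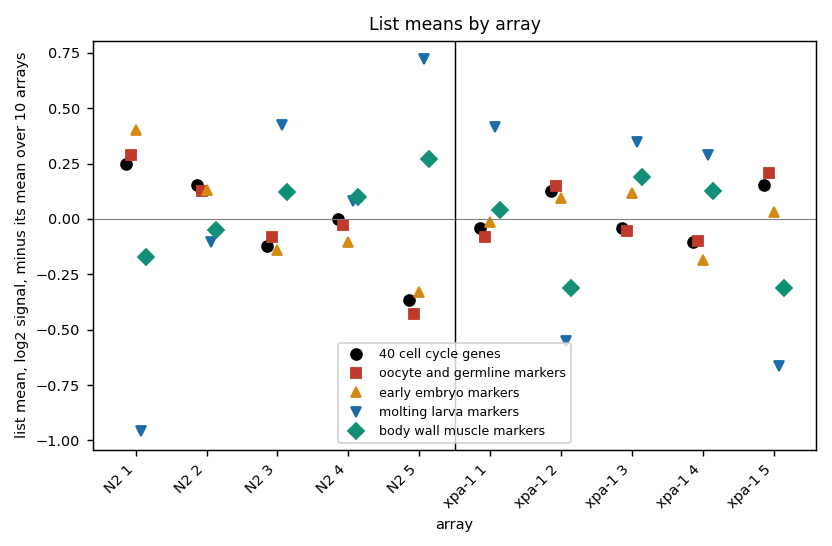
The vertical axis is the mean log2 signal of a gene list minus its mean over the 10 arrays on the horizontal axis, for the 40 cell cycle genes and 4 lists of stage and tissue markers. The cell cycle genes lie close to the oocyte and germline markers on every array, and the molting larva markers lie opposite them on N2 arrays 1 and 5 and on xpa-1 arrays 2 and 5.

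Across the 10 arrays, Pearson's r with the germline marker mean was above 0.8 for 29 of the 40 genes, with a median of 0.882, while 10.4% of all genes and 19.6% of genes with a mean log2 signal over 4 reached that value. It was highest for fzy-1 at 0.965, mcm-4 at 0.962, cyb-3 at 0.957 and air-1 at 0.957. With the molting marker mean the median r of the 40 was -0.792. Without N2 arrays 1 and 5, which lie farthest from the median of the germline markers, the median r with those markers was 0.797 and 19 of the 40 were above 0.8, against 925 of all 17118 genes. These correlations describe 10 arrays from separate collections of worms, in which each marker mean and each gene come from the same array, and none of the 40 genes is in the marker lists.

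Of the other genes, 4 had an r between 0.5 and 0.8 (cdk-1, cya-1, cdt-1 and efl-1) and 7 an r under 0.5. The 7 were cki-1 at -0.443, cyd-1 at -0.115, cdk-2 at -0.083, orc-2 at 0.065, emb-30 at 0.401, cdk-4 at 0.481 and cdc-25.2 at 0.490. With the molting markers cki-1 and cyd-1 had an r of 0.534 and 0.195, but their second probe sets had -0.14 and -0.027, so the sign depended on the probe set.

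**Figure D4:**
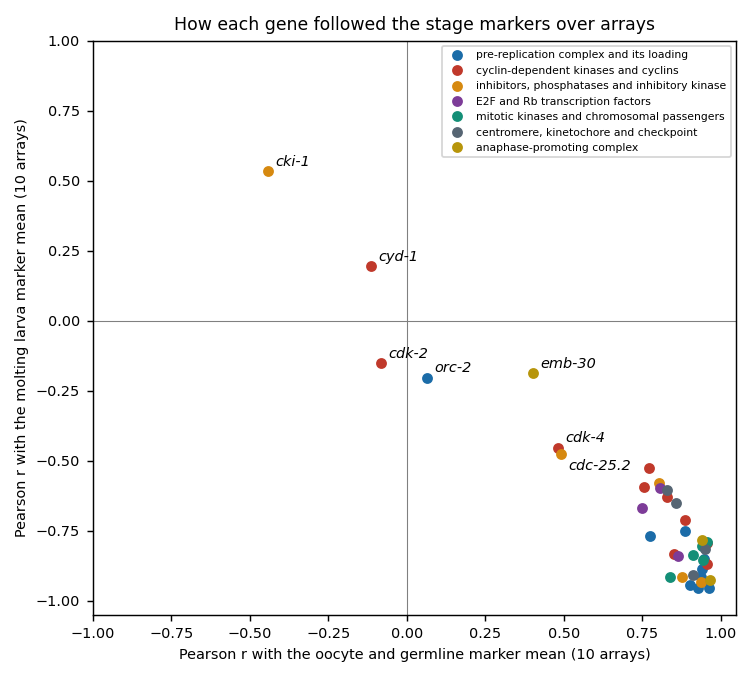
Each point is 1 of the 40 genes, coloured by role, with its Pearson r over 10 arrays with the oocyte and germline marker mean on the horizontal axis and with the molting larva marker mean on the vertical axis. Most genes lie at the lower right, and the 7 genes with an r under 0.5 on the horizontal axis are named.

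With the germline marker mean as a covariate, the strain differences of the 40 genes were centred closer to 0 and had smaller errors. The median difference became 0.007 with 21 of 40 above 0, against 55.8% of all genes and 62.6% of genes with a mean over 4. The median SE of the 40 was 0.073 in place of 0.144. Over all genes the median SE was 0.168 in place of 0.191, and over genes with a mean over 4 it was 0.097 in place of 0.133. Still 0 of the 40 passed in limma, where the lowest adjusted p was 1, and 0 had an unadjusted p under 0.05. The cyb-3 difference, for example, was 0.09 (SE 0.043) in this fit for its brighter probe set, and that of mcm-7 was 0.05 (SE 0.052). The second cyb-3 probe set, at -0.016 (SE 0.079) without the covariate, is not covered by that value.

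The wild-type arrays were spread more widely than the mutant arrays. The SD over N2 arrays was larger than over xpa-1 arrays for 33 of the 40 genes, compared with 54.9% of all genes and 64.2% of genes with a mean over 4, and the median SD was 0.277 in N2 and 0.172 in xpa-1. Without N2 array 5 the median SD of N2 was 0.183, and its SD was the larger for 20 of 40. That compares with 7491 of all 17118 genes and 3830 of the 8676 genes with a mean over 4. The difference in spread was thus smaller without that 1 array. An array was left out of 1 strain only, so the strains were not treated alike, and the comparison carries no test. The germline marker mean had an SD of 0.27 in N2 and 0.14 in xpa-1.

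**Figure D5:**
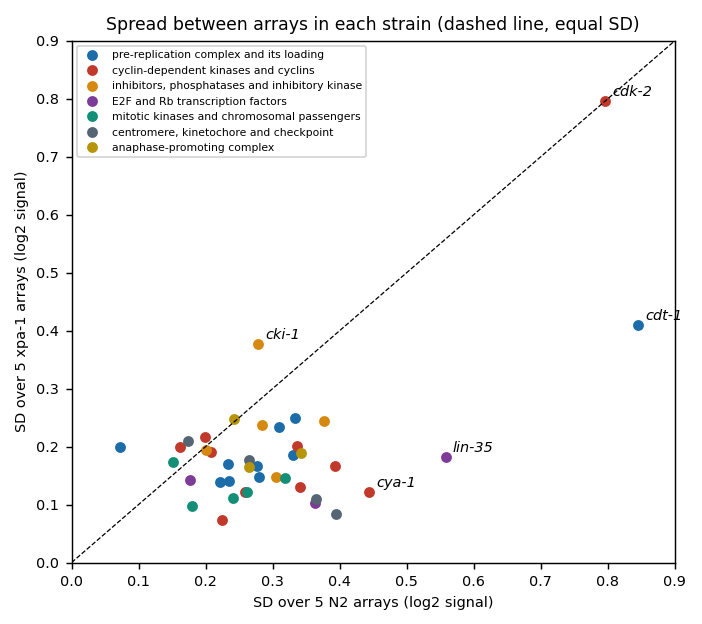
Each point is 1 of the 40 genes, with the SD of its log2 signal over 5 N2 arrays on the horizontal axis and over 5 xpa-1 arrays on the vertical axis. Most points lie below the dashed line of equal SD, among them cdt-1, lin-35 and cya-1 far to the right. The cdt-1 probe set is dim, with a mean log2 signal of 3.89. Second probe sets, not drawn, had an SD of 0.227 in N2 and 0.321 in xpa-1 for lin-35, and 0.364 and 0.254 for cya-1. The cdk-2 probe set, at the floor of the scale, has an SD of 0.796 in both strains.

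A gene's probe sets did not always vary alike. Of the 40 genes 18 had 2 or more probe sets, which adds 20 to those used above. The strain differences of these 20 ran from -0.14 to 0.17, 0 had a limma p under 0.05 (lowest 0.299, unadjusted), and 13 had the sign of the probe set that stood for the gene. Over the 10 arrays 10 of the 20 correlated with it at an r above 0.8, and the others reached down to 0.187.

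Both orc-2 and cyb-3 show this. The second orc-2 probe set read 6.61, 6.36, 6.30, 6.46 and 5.78 in N2 and 6.09, 6.54, 6.19, 6.17 and 6.44 in xpa-1, and had an r of 0.921 with the germline markers where the first had 0.065. For cyb-3 it was the other way round, with 0.957 for the probe set used above and 0.360 for the second, which stayed between 10.24 and 10.54 on all 10 arrays. The second probe set of cdc-25.2 had an r of 0.754 with the germline markers, and the 2 others of emb-30 had 0.297 and 0.748. The second of lin-35 read 5.78 on N2 array 5 and 5.64 on xpa-1 array 2, and so did not single out N2 array 5. For cki-1 neither probe set reached 0.8, at -0.443 and 0.296, and for cyd-1 they had -0.115 and 0.092.

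Of the 40 probe sets used, 16 and 6 are of the classes whose probes may match more than 1 transcript, and those of cyb-1, cyb-2.1, cyb-2.2, mcm-3, cdc-25.1 and emb-30 are of the less specific class. The genes lie on all 6 chromosomes in assembly WBcel235, with 12 on chromosome I, which also holds xpa-1. The median difference of those 12, 0.036, was that of all 40.

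Partners of these genes were examined in the same way. Of 165 further genes listed for replication forks, kinase and ubiquitin regulation, the DREAM complex, kinetochore, spindle and centrosome, and cohesin and condensin, 151 were measured. In limma 0 of the 151 passed an adjusted p of 0.05 over all genes in either direction, and 0 had an unadjusted p under 0.05. The median difference was 0.068, with 120 (79.5%) above 0, against 55.8% of all genes and 63.9% of genes with a mean over 4. Without N2 array 5, 61 (40.4%) were above 0, against 51.3% of all genes. N2 array 5 was the lowest array for 125 of them (82.8%), against 34.4% of all genes and 37.3% of genes with a mean over 4. An r above 0.8 with the germline markers was reached by 94 (62.3%), against 10.4% and 19.6%.

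The gene with the highest signal of each set is given here. The ribonucleotide reductase gene rnr-2 differed by 0.08 (SE 0.12), cks-1, whose product binds cyclin-dependent kinases, by 0.11 (SE 0.12), and lin-53, a histone-binding partner of LIN-35, by 0.04 (SE 0.11). The checkpoint gene bub-3 differed by 0.13 (SE 0.098), the Polo kinase gene plk-3 by 0.02 (SE 0.18), and the securin gene ify-1 by 0.08 (SE 0.13). All 6 were lowest on N2 array 5 among the N2 arrays, for example ify-1 with 8.50 there and 9.21 on N2 array 1.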

How the data were processed

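The deposited table holds log2 probe set signals, made by the authors with Affymetrix Expression Console per the submitters' processing notes. How probes were summarised and arrays scaled is not stated there. Of 22625 probe sets 77 controls were left out. The 22548 others were fitted as deposited by lmFit and eBayes, two-sided, with strain as the only term (limma version 3.58.1, R version 4.3.3). The p-values were then adjusted by Benjamini-Hochberg over 17118 genes. SD is over 5 arrays and SE is that of the fit. The fit was checked on simulated data.

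The members and gene lists were chosen with earlier results of these data known. Values on every array were given by rule for the member with the brightest probe set in each role group, the 2 largest differences in each direction and the 4 smallest p-values. For lin-35, cki-1 and cdt-1 they were added after their values were seen. Alternatives covered scaling, offset, a low-value filter, the variance model, all probe sets, a replicate block, a germline covariate and leaving out arrays.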

Additional observations from a re-analysis of the deposited data

Results flagged for a closer look

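Dixon's criterion for 1 outlying value among 5 was applied within each strain to the 40 genes and the list means. It picked out 8 of 122 sets, or 6.56%. Chance flags about 1 in 20 groups that are independent. These sets shared arrays, and list means held the same genes, so that rate is no measure for them. Of the 8, 6 were N2 array 5. There mcm-3 read 7.55 against 7.95 to 8.10 on the other N2 arrays, cki-2 6.27 against 6.88 to 7.02, lin-35 5.98 against 7.09 to 7.33, air-1 7.99 against 8.58 to 8.81, and bub-1 6.38 against 7.07 to 7.26. The mean of the centromere, kinetochore and checkpoint genes was 6.885 there against 7.39 to 7.59. In the mutant, cyb-1 read 9.27 on xpa-1 array 2 against 9.08 to 9.13, and the sperm marker mean was 4.135 on xpa-1 array 1 against 3.13 to 3.35.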

How the results depend on the processing

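Under all 19 alternatives 0 of the 40 genes, or 0 of the 38 left by a mean log2 signal over 4, and 0 of the related genes passed an adjusted p of 0.05 in limma (lowest 0.945, without N2 array 1). Unadjusted, 1 of the 40 had a p under 0.05 under 1 alternative, orc-2 without xpa-1 array 2 (-0.19), so that count ran from 0 to 1 when single arrays were left out. Without xpa-1 array 2, 556 of all 17118 genes had an unadjusted limma p under 0.05. For the related genes the count ran from 0 to 4 over the alternatives, with 4 without N2 array 5 and 4 without N2 arrays 1 and 5 together. Among those without N2 array 5 was plk-2 (-0.198), chosen after its value was seen. Without N2 array 5 the share was 2.65% of the related genes, against 3.35% of all genes. Without both arrays it was 2.65%, against 3.74% of all genes. The median difference was 0.022 with centring, 0.020 with quantile normalization, 0.033 with an offset of 16, 0.040 with the filter, 0.036 with the replicate block and with trend and robust options, 0.041 with the mean of all probe sets, and from -0.050 to 0.110 without single arrays. Without N2 arrays 1 and 5 together, chosen after seeing the data, it was -0.004. Of 247 values of the 13 genes given by rule, 19 had the other sign, and 0 passed. Those of emb-27 were -0.031 with the germline covariate and -0.085 without N2 arrays 1 and 5, where knl-1 had -0.021. Without single arrays cdc-25.1 ranged from -0.102 to 0.096, efl-1 from -0.025 to 0.086, plk-1 from -0.116 to 0.038, knl-1 from -0.050 to 0.115, emb-27 from -0.117 to 0.093 and hcp-4 from -0.007 to 0.235. Calls over all genes were 19 as reported, 12 with the filter and 5 with the replicate block. The numbers did not pair the samples: deviations of same-numbered arrays correlated at -0.266 to -0.031 over genes, and 0 arrays correlated best with their own number.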
